A study of Homo sapiens with 12 samples.

Results

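The 5 genes described here encode proteins, other than the eIF2 subunits, that handle initiator or other P-site tRNA on the small ribosomal subunit. They are EIF2A (RefSeq transcript NM_032025), EIF2D (NM_006893), MCTS1 (NM_014060), DENR (NM_003677) and EIF5B (NM_015904). They were chosen by name, not by any measured value, and are 5 of the 19305 transcript accessions counted. Each had 1 accession, and all 5 passed the filter on low counts in every main fit. MCTS1, with 29 to 53 reads per H9 library, fell below the mean count of 50 asked for in an alternative H9 fit.

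In the usual route, the GTP-bound factor eIF2 brings initiator tRNA to the small subunit, and stress kinases shut this route down by phosphorylating eIF2 on its alpha subunit. eIF2A, a single protein unrelated to the eIF2 subunits, can bind initiator tRNA without GTP and has been studied as a substitute under stress. EIF2D, also called ligatin, is a single chain that both recruits and releases P-site tRNA, and the MCTS1 and DENR proteins form a complex that resembles EIF2D divided over separate chains. The MCTS1 and DENR complex is best known for recycling small subunits after termination and for restarting translation after short upstream reading frames. EIF5B is the GTPase that joins the large subunit to the initiation complex, and it has also been reported to stabilise initiator tRNA there.

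Ribosome profiling, the sequencing of mRNA fragments shielded by ribosomes, was deposited as 12 count files. HEK293T is a human embryonic kidney line, and all 8 of its files came from cells given sodium arsenite, a stressor that induces eIF2 phosphorylation. These 8 were labelled by siRNA (control or eIF2A), by the cap-binding protein immunoprecipitated (CBP80 of the nuclear cap-binding complex, or eIF4E of the cytoplasm) and by set 1 or 2, so each of 4 combinations had 2 files. H9 is a human embryonic stem cell line, and its 4 files carried control or eIF2A shRNA and set 1 or 2, with no arsenite and no immunoprecipitation named. The labels do not say whether the sets were separate cultures. The p-values below thus rest on how far these libraries lie from each other, estimated in part over all genes, which may be technical spread alone.

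Some files stood closer together than their labels. In HEK293T, the CBP80-labelled and eIF4E-labelled file of 1 siRNA and set gave a chi-square per degree of freedom of 1.01 to 1.03 over all genes with at least 20 reads, near the 1 of counting noise, while the sets gave 3.95 to 5.52. Each such pair was therefore summed and counted as 1 library, which left 2 control and 2 eIF2A siRNA libraries. In H9, the control and eIF2A shRNA libraries of 1 set gave 1.04 in set 1 and 1.07 in set 2, against 2.75 to 3.13 between sets. As labelled, the H9 libraries thus differed more by set than by shRNA. The names of the 4 deposited H9 files carry a letter that goes with the set and a number that goes with the shRNA, so which H9 library holds which set and shRNA is uncertain, and every H9 comparison below uses the labels as given. Whether a HEK293T pair is 1 library read out again is likewise not known. Coding reads ran from 4331459 to 5775177 per HEK293T file and from 937990 to 1878700 per H9 file. Of 10 pluripotency markers matched, 9 reached 20 reads per 1000000 coding reads (CPM) in H9, where POU5F1, a defining one, was listed at 0 in all 4 libraries. In HEK293T, NEFL and NEFM, 2 of its 3 markers, reached that level. The fibroblast list also had 3 of 4 genes at that level in H9 (COL1A1, COL1A2 and THY1), with a summed 657.5 to 828.4 CPM. Of this sum THY1 alone held 369.9 to 397.6 CPM, while COL3A1 was at most 1.6 CPM. Whether fibroblasts were present was not tested.

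EIF2A, the target of both knockdowns, did not follow the labels. In HEK293T it stood at 83.2 and 83.5 CPM in the control libraries of sets 1 and 2. It stood at 96 CPM in the library labelled eIF2A siRNA of set 1 and at 46.7 CPM in that of set 2. The set 1 library was thus the highest of the 4 and the set 2 library the lowest, and the groups overlapped. The ratio of eIF2A siRNA over control was 1.15 in set 1 (95% counting interval 1.05 to 1.26). In set 2 it was 0.559 (0.5 to 0.626). Scaled by TMM, a factor that sets the bulk of genes equal, the log2 ratio was 0.08 in set 1, against 0.21 by CPM, and -0.88 in set 2. In the second set EIF2A was the 21st lowest of 6506 genes averaging at least 20 CPM, with a log2 ratio of -0.84 against a median of 0.05 for all of them. It was the one member at least 1.5-fold apart there, where 5.84% of genes were that far apart in either direction. In set 1 none of the 5 members was, against 7.45% of genes.

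EIF2A was thus lower than its control in 1 of the 2 sets, and every comparison below is between libraries labelled eIF2A siRNA or shRNA and libraries labelled control. Averaged over sets, EIF2A was 83.4 ± 0.156 CPM (SD, n = 2) in control and 71.3 ± 34.9 CPM (n = 2) under the eIF2A siRNA label. The log2 fold change was -0.33 ± 0.36 (SE), with an adjusted p of 0.643 by edgeR's quasi-likelihood test over 12331 genes. Without the library labelled eIF2A siRNA of set 1 the change was -0.88 with an edgeR adjusted p of 0.000243, and without that of set 2 it was 0.06 with 0.838. Those 2 libraries also differed from each other: set 2 held 0.486 (0.436 to 0.542) of the EIF2A level of set 1, which was the 6th lowest of 6739 ratios. Of all genes, 0.89% were 1.5-fold apart between these 2 libraries and 0.277% between the control libraries, where the EIF2A ratio was 1 (0.911 to 1.1). No other member was 1.5-fold apart in either pair.

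**Figure D1:**
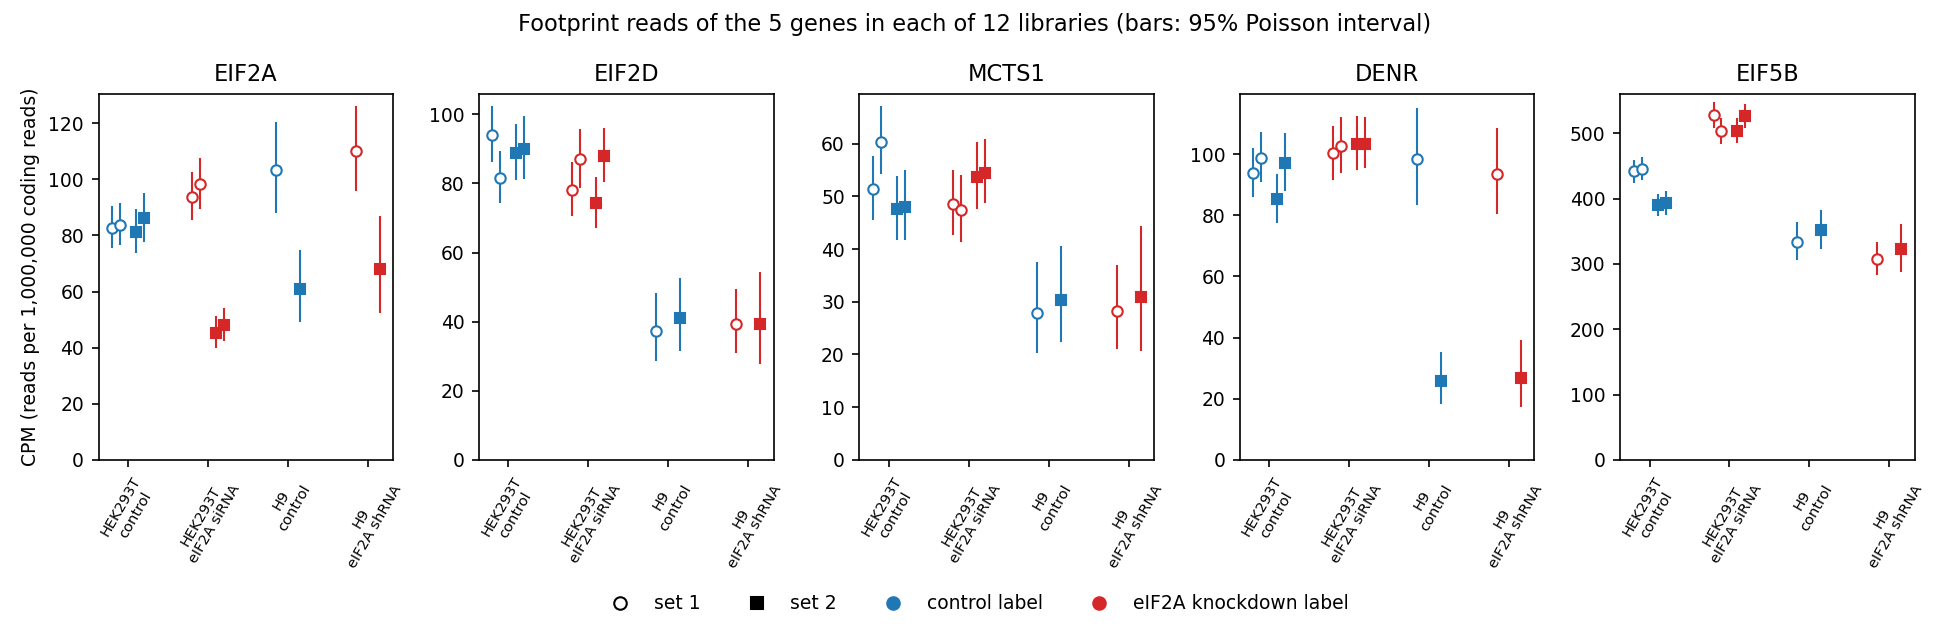
Each panel plots 1 gene, with CPM (reads per 1000000 coding reads) on a linear axis from 0 for each of the 12 files by cell line and knockdown label; open circles are set 1, filled squares set 2, blue control and red the eIF2A knockdown label, and bars are 95% Poisson intervals. EIF2A in the HEK293T eIF2A siRNA label falls apart by set (45.3 and 48 CPM in the set 2 files), and DENR in H9 does the same under both labels.

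EIF2D was the steadiest member in HEK293T. It stood at 87.7 and 89.4 CPM in the control libraries and at 82.4 and 81.3 CPM in those labelled eIF2A siRNA, so the groups did not overlap. Groups of 2 libraries separate easily, and the share of all genes whose groups did so was not counted, here or below. Set 1 gave a ratio of 0.94 (0.855 to 1.03), set 2 one of 0.91 (0.828 to 1), and both intervals reached 1. Scaled by TMM, the log2 ratios were -0.21 and -0.18, against -0.09 and -0.14 by CPM. The fit gave a log2 change of -0.20 ± 0.13, with an edgeR adjusted p of 0.345. Within the libraries, EIF2A gave 0.949 and 0.934 reads per EIF2D read in control and 1.16 and 0.574 under the eIF2A siRNA label, the same split by set that EIF2A showed against all coding reads.

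The partners MCTS1, an RNA-binding protein first named as an amplified gene of T cell lymphoma, and DENR, which carries an SUI1 fold like that of eIF1, did not pass the test for the siRNA label. MCTS1 stood at 55.9 and 47.8 CPM in control and at 48 and 54.1 CPM under the eIF2A siRNA label. Its ratio was below 1 in set 1, at 0.858 (0.76 to 0.969), and above 1 in set 2, at 1.13 (1 to 1.28); by TMM the log2 ratios were -0.34 and 0.13. The 2 control libraries differed by as much, with set 2 over set 1 at 0.855 (0.756 to 0.966). DENR stood at 96.3 and 90.7 CPM in control and at 101.5 and 103.5 CPM under the label, without overlap. Its ratios were 1.05 (0.966 to 1.15) and 1.14 (1.04 to 1.25), but scaling by TMM turned the set 1 value to a log2 ratio of -0.05. The fits gave log2 changes of -0.11 ± 0.14 for MCTS1 and 0.05 ± 0.13 for DENR, with edgeR adjusted p-values of 0.679 and 0.867.

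EIF5B, the subunit-joining GTPase, had the most reads and so the narrowest intervals. It stood at 443.8 and 391.6 CPM in control and at 515.6 and 515.3 CPM in the libraries labelled eIF2A siRNA. Set 1 gave a ratio of 1.16 (1.12 to 1.21), set 2 one of 1.32 (1.26 to 1.37). By CPM the difference between the sets lay in the controls, with set 2 over set 1 at 0.882 (0.846 to 0.921), while the labelled libraries gave 0.999 (0.962 to 1.04). Scaled by TMM, both sides moved, with log2 ratios of set 2 over set 1 of -0.16 in control and 0.10 in the labelled libraries. In set 1 the log2 ratio of 0.22 became 0.09 under TMM scaling. Across sets the change was 0.22 ± 0.14 with an edgeR adjusted p of 0.319, so the counting error excluded 1 while the spread between libraries did not give a call.

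None of the 5 members passed the threshold of 0.05 in this comparison, against 12.4% of genes (1534 of 12331 by edgeR). The members' median log2 change was -0.11, beside 0.00 for all genes tested. The count of genes depended on single libraries, with 75 called without the control library of set 2, 287 without the eIF2A siRNA library of set 1 and 983 without the control library of set 1. Uniquely placed reads that fell outside coding sequences also moved with the siRNA label, with a share of 40 and 35.2% in control against 51.1 and 42.3% under the eIF2A siRNA label, and its part in these values was not tested.

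**Figure D2:**
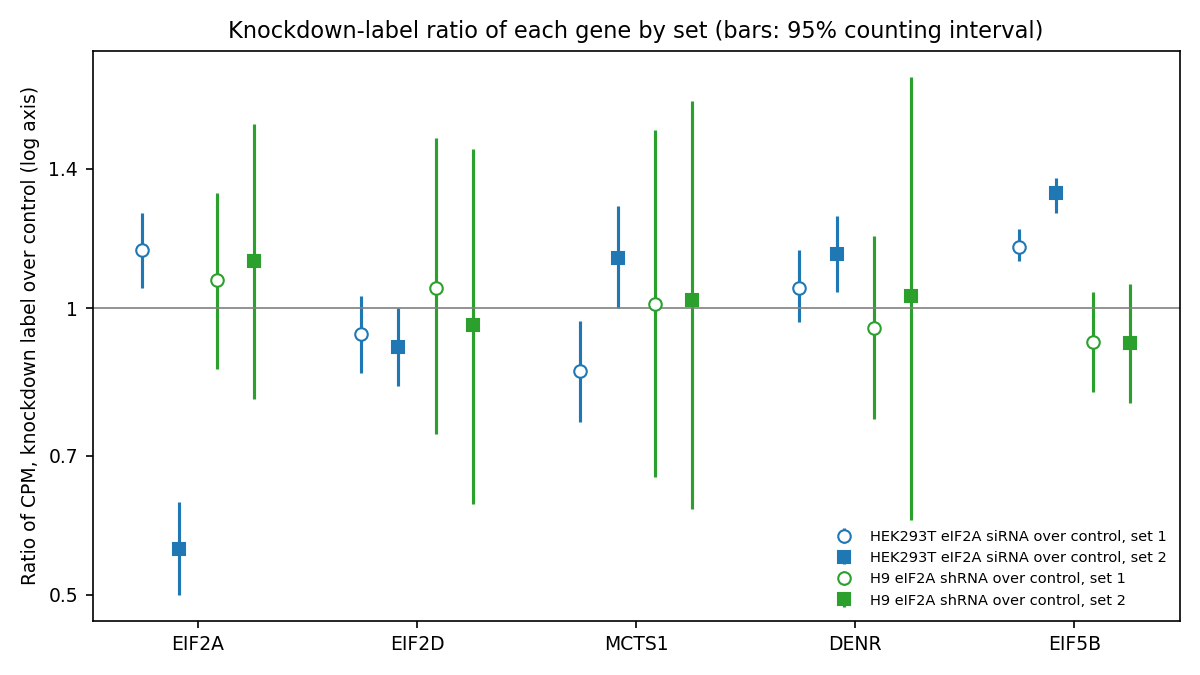
For each gene, the ratio of CPM of the library labelled eIF2A knockdown over its control is plotted on a log axis by set (open circles set 1, filled squares set 2) in HEK293T (blue) and H9 (green), with 95% counting intervals. EIF2A in HEK293T set 2, at 0.559, is the one value far below 1, and both EIF5B values in HEK293T, 1.16 and 1.32, lie above 1.

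The study set mRNAs held by CBP80 against those held by eIF4E, and no member differed between the 2 labels by a test, in pairs of files that agreed within about counting noise. The EIF2A ratio of eIF2A siRNA over control was 1.13 (0.996 to 1.29) in the CBP80-labelled and 1.17 (1.03 to 1.34) in the eIF4E-labelled files of set 1. In set 2 it was 0.558 (0.474 to 0.655) and 0.557 (0.475 to 0.652), so the split by set was repeated under each label. EIF5B ratios were likewise above 1 in all 4 pairs of files, from 1.13 to 1.34. The files that were summed above enter here as separate samples, so the 2 labels give no independent repeat.

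EIF2D had the largest gap between the labels in its siRNA change, one that its test did not call. In CBP80-labelled files it stood at 93.9 and 88.8 CPM in control and at 78.2 and 74.2 CPM under the eIF2A siRNA label, without overlap. In eIF4E-labelled files it stood at 81.5 and 90 CPM in control and at 87 and 88 CPM under the label, with overlap. The log2 change was -0.35 ± 0.12 in the CBP80-labelled files (edgeR adjusted p = 0.0969) and -0.05 ± 0.12 in the eIF4E-labelled files (adjusted p = 0.826). The difference of the changes was 0.29 ± 0.17, with an edgeR p of 0.098 and an adjusted p of 1. The gap was thus within the spread between files by this test.

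No member was called in either label, against 4.02% of genes in the CBP80-labelled and 3.25% in the eIF4E-labelled comparison (473 and 383 of 11778 by edgeR). Those counts fell to 3 and 0 genes without the control file of set 2 of that label, and to 8 and 26 without its eIF2A siRNA file of set 1. EIF2A changed by -0.34 ± 0.38 and -0.32 ± 0.38 on the log2 scale, MCTS1 by -0.03 ± 0.15 and -0.17 ± 0.15, and DENR by 0.10 ± 0.12 and -0.01 ± 0.12. The interaction of label and siRNA called 0 genes by edgeR, or 0% (96 at an unadjusted p under 0.05; DESeq2 also 0). That fit counts the difference between the sets as spread, which makes a call less likely.

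Between the labels themselves, eIF4E over CBP80 within 1 siRNA and set, the EIF2A ratio lay between 1.01 and 1.06 in the 4 pairs. The EIF5B ratio lay between 0.954 and 1.04, the DENR ratio between 1 and 1.14, and the MCTS1 ratio between 0.976 and 1.18. EIF2D was the most spread, at 0.868 (0.765 to 0.985) and 1.01 in control and 1.11 and 1.19 (1.04 to 1.36) under the eIF2A siRNA label. No member was called between labels, against 0% of genes in control (0 of 11778 by edgeR, with 111 at an unadjusted p under 0.05 and 0 by DESeq2) and 0.00849% under the eIF2A siRNA label (1 gene). No preference of a member for either cap-binding protein was detectable in these files, whose labelled pairs agreed within about counting noise.

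In H9, no difference between the libraries labelled control and eIF2A shRNA was detectable within a set for any of the 5 genes, with the doubt about these labels given above. EIF2A stood at 103.4 CPM in control and 110.2 CPM under the eIF2A shRNA label in set 1, and at 60.9 and 68.2 CPM in set 2. The labelled library was the higher one in both sets, with ratios of 1.07 (0.864 to 1.32) and 1.12 (0.802 to 1.56). A fall of EIF2A as deep as that of HEK293T set 2, to 0.559, lies outside both intervals. EIF2D stood at 37.4 and 41 CPM in control and at 39.4 and 39.4 CPM under the label, and MCTS1 at 27.9 and 30.4 CPM in control and at 28.2 and 30.9 CPM. EIF5B stood at 334.1 and 352.1 CPM in control and at 307.7 and 323.0 CPM under the label, with ratios of 0.921 (0.817 to 1.04) and 0.918 (0.794 to 1.06), whose intervals both reached 1.

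The edgeR log2 changes by shRNA label were 0.15 ± 0.28 for EIF2A, 0.01 ± 0.21 for EIF2D, 0.01 ± 0.25 for MCTS1, 0.06 ± 0.65 for DENR and -0.12 ± 0.12 for EIF5B, with an adjusted p of 1 for each. No gene was called, 0% of 9751 by edgeR, with 84 at an unadjusted p under 0.05. This fit too counts the difference between the sets as spread, which makes a call less likely. DESeq2 called 0 as well, with 0 at an unadjusted p under 0.05. None of the members was 1.5-fold apart by shRNA label in set 1 or set 2, against 1.84 and 4.52% of genes. EIF5B was the member whose change differed in sign between the lines in both sets, and the interaction of knockdown label and cell line was 0.36 ± 0.19 with an edgeR adjusted p of 0.638. For EIF2A the interaction was -0.48 ± 0.60 (adjusted p = 0.868). edgeR called 0% of 12911 genes in that interaction, with 1062 at an unadjusted p under 0.05, and DESeq2 was not run on it.

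Within H9 the largest differences lay between the libraries labelled set 1 and set 2, and DENR differed most. If set and shRNA were exchanged in the labels, these would be differences by shRNA. DENR had 155 reads (98.3 CPM) in control and 176 reads (93.7 CPM) under the eIF2A shRNA label in set 1. In set 2 it had 39 reads (25.8 CPM) and 25 reads (26.7 CPM). Both labels thus agreed within each set, and the sets were far apart. With both labels of a set summed, set 2 held 0.273 (0.205 to 0.357) of the DENR level of set 1. That log2 ratio of -1.87 was the 2nd lowest of 6904 genes, whose median was -0.01. In the control libraries alone DENR was the 3rd lowest of 6901, and in the eIF2A shRNA libraries the 7th lowest of 6865.

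EIF2A lay on the same side, at 0.595 (0.49 to 0.719) of its set 1 level, the 119th lowest of the 6904. The other 3 members did not differ beyond counting error between the sets, with EIF2D at 1.05 (0.801 to 1.37), MCTS1 at 1.09 (0.796 to 1.49) and EIF5B at 1.07 (0.973 to 1.17). So 2 of 5 members were at least 1.5-fold lower in set 2, against 4.06% of genes (6.56% in either direction). With 1 summed library on each side there was no replicate test, and the intervals cover counting error only. Among the 29 other initiation and recycling genes and clients described further on that averaged 20 CPM, 3 were 1.5-fold lower and 0 higher. These were EIF1AX, a scanning factor, at 0.652, EIF2AK1, the heme-regulated eIF2 kinase, at 0.645, and SRC, a tyrosine kinase, at 0.663.

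Some genes of the marker lists differed between the H9 sets and others did not. COL1A2, a collagen of fibroblasts, stood at 143.3 and 149.0 CPM in set 1 and at 249.5 and 255.9 CPM in set 2, and COL1A1 at 119.8 and 110.7 CPM against 160.8 and 178.0 CPM. THY1, the most abundant of the fibroblast list, stood at 393.1 and 397.6 CPM against 369.9 and 394.5 CPM, and COL3A1 was at most 1.6 CPM. The summed pluripotency list ranged from 5315.6 to 5629.8 CPM over all 4 libraries, with LIN28A lower in set 2 (502.8 and 518.4 against 378.5 CPM in both libraries) and SOX2 at 245.4 and 256.0 against 291.8 and 265.5 CPM. SOX17, EOMES, TBXT, GATA6, PAX6, CGA, GCM1 and TFAP2A were listed at 0 in all 4. Of the same lists, FOXA2 stood at 3.17 and 7.98 CPM in set 1 against 0.662 and 0 CPM in set 2. SOX1 stood at 3.17 and 3.73 CPM against 1.32 and 0 CPM, and MIXL1 was at most 1.07 CPM. The part of these shifts in the DENR and EIF2A values was not tested, and fewer cells of a type and less RNA per cell cannot be told apart in such bulk libraries.

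**Figure D3:**
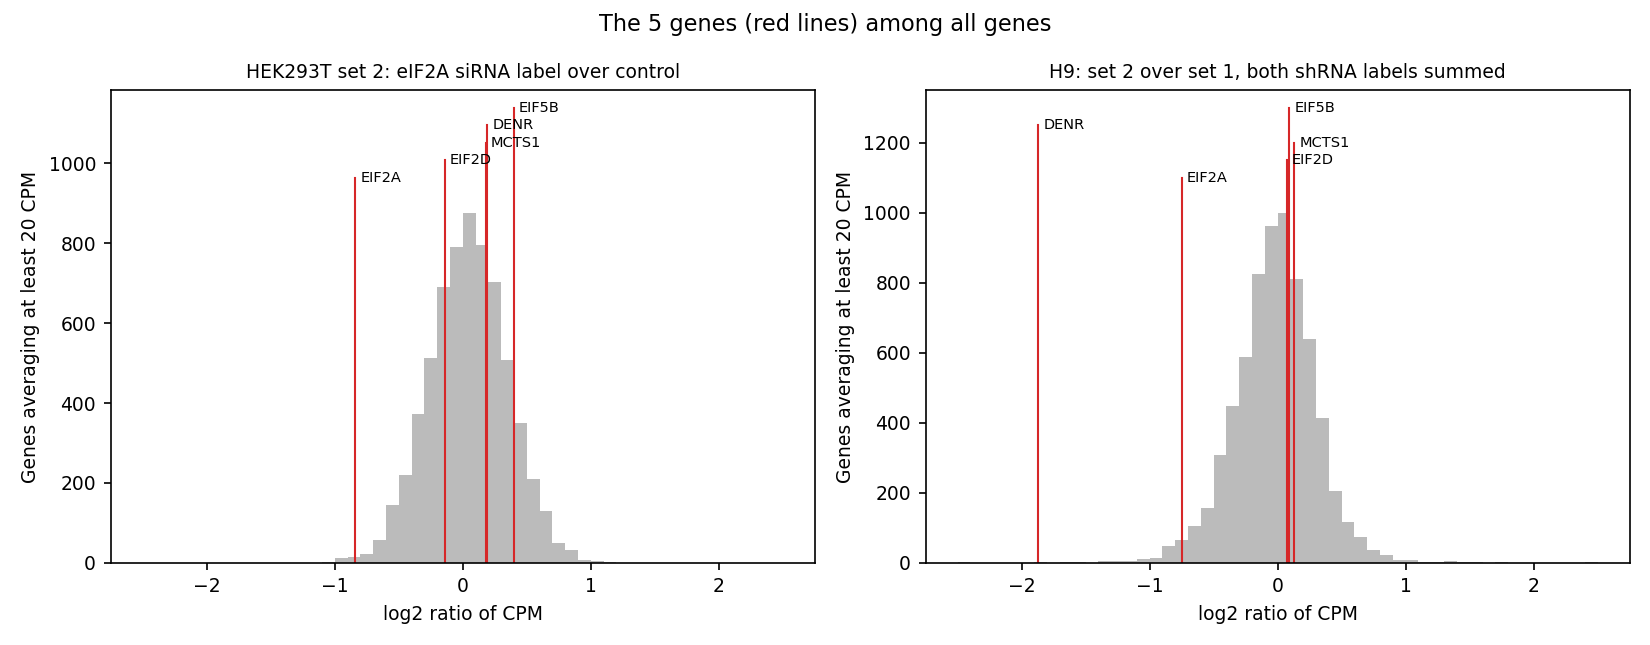
Histograms of the log2 ratio of CPM (x axis) over all genes averaging at least 20 CPM (y axis, number of genes), for HEK293T set 2 by siRNA label (left) and for H9 set 2 over set 1 with both labels summed (right); red lines mark the 5 genes, their height having no meaning. EIF2A lies in the left tail of both, at -0.84 and -0.75, and DENR lies at -1.87 in H9 alone.

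DENR and MCTS1 act as 1 complex, and their footprint ratio was not held constant. In HEK293T there were 1.72 and 1.9 DENR reads per MCTS1 read in the control libraries and 2.11 and 1.91 in those labelled eIF2A siRNA. In H9 there were 3.52 (2.51 to 5.04) and 3.32 (2.43 to 4.6) in set 1, above every HEK293T library. In set 2 there were 0.848 (0.539 to 1.33) and 0.862 (0.484 to 1.52), below every HEK293T library. With labels summed, the H9 sets stood at 3.41 (2.71 to 4.32) and 0.853 (0.602 to 1.21). The EIF2D to MCTS1 ratio, by contrast, stayed between 1.28 and 1.4 in the 4 H9 libraries, so the DENR side of the ratio was the one that differed. Reads per gene also depend on coding length, so these ratios describe shifts between libraries and not the relative amount of the proteins.

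**Figure D4:**
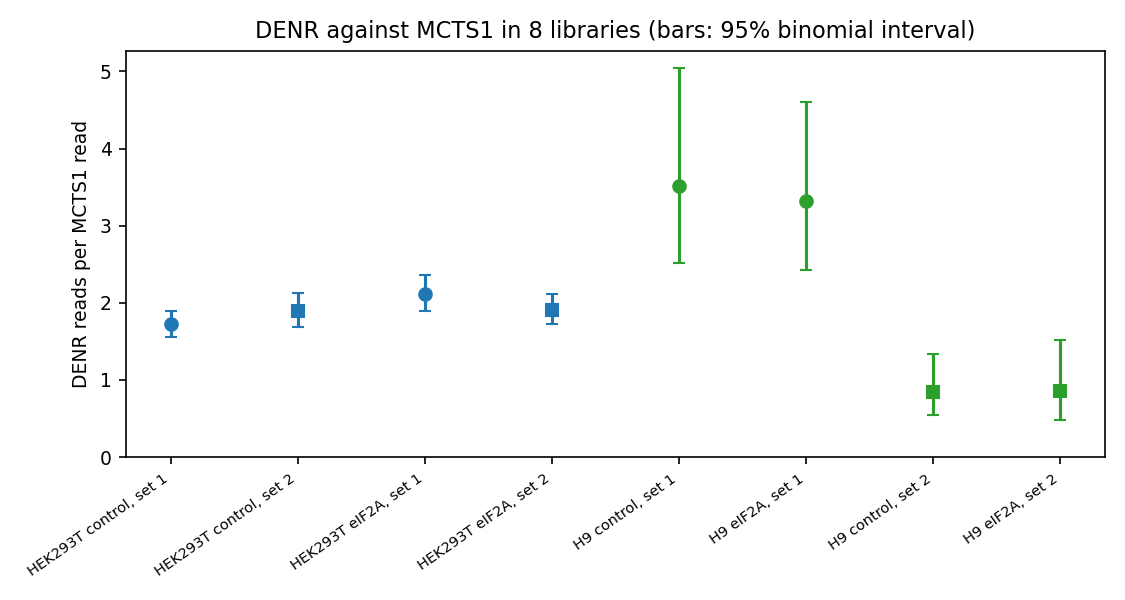
DENR reads per MCTS1 read (linear axis from 0) in each of the 4 summed HEK293T libraries (blue) and 4 H9 libraries (green), with 95% binomial intervals; circles are set 1 and squares set 2, and "eIF2A" on the axis is the knockdown label. The HEK293T libraries lie between 1.72 and 2.11, and the H9 libraries lie above them in set 1 and below them in set 2.

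Between the lines, the controls of H9 were lower than those of HEK293T for EIF2D and MCTS1. Cell line, arsenite, immunoprecipitation and the kind of control RNA change together in this comparison and cannot be told apart. EIF2D was 88.5 ± 1.15 CPM (SD, n = 2) in HEK293T and 39.2 ± 2.56 CPM (n = 2) in H9, a log2 difference of -1.33 ± 0.19 with an edgeR adjusted p of 2.15e-11. MCTS1 was 51.8 ± 5.74 CPM and 29.2 ± 1.8 CPM, a log2 difference of -0.99 ± 0.21 (edgeR adjusted p = 5.59e-06). Neither pair of groups overlapped.

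For the other 3 members the difference was weaker or rested on settings. EIF5B was 417.7 ± 36.9 CPM in HEK293T and 343.1 ± 12.7 CPM in H9, a log2 difference of -0.44 ± 0.14 (edgeR adjusted p = 0.00345). It was no longer called with library sizes alone (-0.28, adjusted p = 0.0593), over genes with a mean count of at least 50 (-0.29, 0.0558) or without the HEK293T control library of set 1 (-0.37, 0.0692). DENR was 93.5 ± 3.97 CPM and 62 ± 51.2 CPM, a log2 difference of -0.75 ± 0.18 (edgeR adjusted p = 6e-05), although 1 of the 2 H9 controls, at 98.3 CPM, lay above both HEK293T controls. That call was lost under RLE scaling (adjusted p = 0.423), with no count filter (0.399), over genes with a mean count of at least 50 (0.505) and by DESeq2 (0.467). It was also lost without the H9 control library of set 2 (-0.08, 0.732) and without either HEK293T control (0.153 and 0.134), while without the H9 control of set 1 the difference was -1.97. EIF2A was 83.4 ± 0.156 and 82.1 ± 30 CPM, a log2 difference of -0.18 ± 0.17 (edgeR adjusted p = 0.347), which became -0.57 (0.0146) without the H9 control of set 1.

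By this fit 4 of 5 members were lower in H9 and none higher, against 37.3% of genes lower and 71.8% called in either direction. The members' median log2 difference was -0.75, beside -0.07 for all 12307 genes tested, a median that library sizes alone moved to 0.09. The order of variability also differed by line. Over the 4 libraries of a line, the highest over the lowest CPM was 2.06 for EIF2A, 1.32 for EIF5B, 1.17 for MCTS1, 1.14 for DENR and 1.1 for EIF2D in HEK293T. In H9 it was 3.81 for DENR, 1.81 for EIF2A, 1.14 for EIF5B, 1.11 for MCTS1 and 1.1 for EIF2D.

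The rest of the initiation and recycling machinery was read from 6 lists. Of 10 genes of canonical tRNA delivery (the eIF2 subunits, EIF5, CDC123 and the eIF2B subunits that reload eIF2 with GTP), 2 fell under the eIF2A siRNA label in HEK293T and none rose, where 6.29% of all genes fell and 6.15% rose. EIF2B3 stood at 163.7 and 155.9 CPM in control and at 125.5 and 127.4 CPM under the label (log2 -0.42 ± 0.13, edgeR adjusted p = 0.0254). EIF2B2 stood at 95.1 and 111.9 CPM against 77 and 89.5 CPM (log2 -0.40 ± 0.14, edgeR adjusted p = 0.0422). The median log2 change of these 10 genes was -0.25 beside 0.00 for all genes, the lowest of the lists. With library sizes alone neither was called, at adjusted p-values of 0.0736 for EIF2B3 and 0.138 for EIF2B2, and DESeq2 gave 0.0971 for EIF2B2.

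Of 6 eIF2 kinases and phosphatase subunits 1 rose, EIF2AK2, the kinase PKR that senses double-stranded RNA. It stood at 25.8 and 23.1 CPM in control and at 38.5 and 35.8 CPM under the eIF2A siRNA label (log2 0.51 ± 0.15, edgeR adjusted p = 0.0159; DESeq2 adjusted p = 0.071). Of 6 tested mRNAs reported elsewhere as clients of eIF2A, DENR with MCTS1, or EIF5B, 1 rose and 1 fell. HSPA5, the endoplasmic reticulum chaperone BiP, fell from 4144.6 and 4344.5 CPM to 3031.0 and 3249.0 CPM (log2 -0.52 ± 0.16, edgeR adjusted p = 0.0179). CLOCK, a circadian transcription factor, rose from 26.3 and 22.1 CPM to 42.8 and 35.3 CPM (log2 0.60 ± 0.15, edgeR adjusted p = 0.0053). ATF4, the stress transcription factor whose upstream frames depend on DENR and MCTS1, gave -0.37 ± 0.14 (edgeR adjusted p = 0.0728), and SRC gave 0.13 ± 0.21 (0.722).

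None of these 5 calls held when the control library of set 2 was left out (edgeR adjusted p from 0.335 to 0.679) or when the eIF2A siRNA library of set 1 was (0.0813 to 0.461). Without the control library of set 1, CLOCK alone was still called (0.023). Over the 4 libraries left out in turn, the log2 changes stayed on their side of 0, at 0.49 to 0.71 for CLOCK, 0.45 to 0.58 for EIF2AK2, -0.63 to -0.43 for HSPA5, -0.49 to -0.37 for EIF2B3 and -0.57 to -0.25 for EIF2B2. No gene was called among 4 scanning and joining factors, 2 eIF5 mimics and 5 termination and recycling factors. The smallest p there belonged to EIF6, which keeps the large subunit from joining early (log2 -0.13, edgeR adjusted p = 0.596), BZW1 (-0.02, 0.95) and GSPT1, the release factor eRF3a (0.30, 0.137). In H9 no list gene was called by shRNA label. The smallest p in each list belonged to EIF2S1 (log2 -0.21), EIF1AX (0.38), BZW1 (-0.06), ABCE1 (-0.09), EIF2AK3 (0.46) and XIAP (-0.20), each with an edgeR adjusted p of 1.

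**Figure D5:**
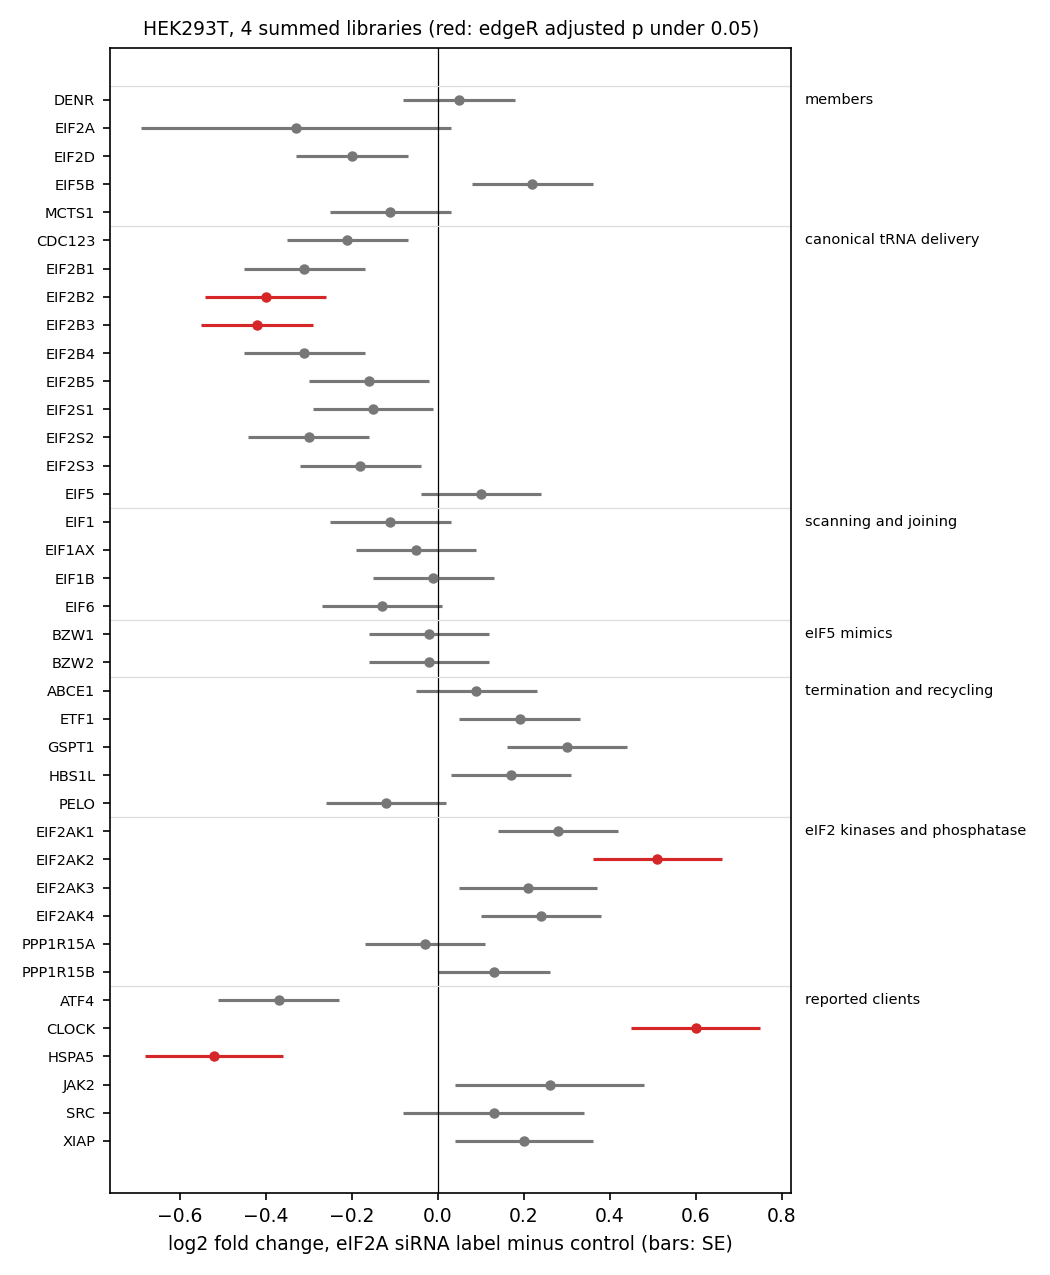
Log2 fold change of the library group labelled eIF2A siRNA over control in HEK293T (x axis, bars SE, 2 libraries in each group) for the 5 members and the tested genes of 6 lists (rows). Red marks an edgeR adjusted p under 0.05, which holds for EIF2B2, EIF2B3, EIF2AK2, HSPA5 and CLOCK and for none of the 5 members; the bar of EIF2A is the widest of the members.

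Against the lines, 5 of the 10 canonical delivery genes were lower in H9 controls and 1 higher, with a median log2 difference of -0.34. The scanning and joining list had 3 of 4 lower and none higher, and both eIF5 mimics were lower. Of 5 termination and recycling genes 2 were lower and 2 higher, of 6 kinases and phosphatase subunits 2 were lower and 3 higher, and of 6 clients 3 were lower and 2 higher. Over all genes tested, 37.3% were lower and 71.8% were called in either direction.

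Over the 8 libraries (4 summed HEK293T and 4 H9), 7105 genes were ranked by how closely their level followed each member. The measure was the root mean square difference of log2 TMM-scaled CPM, after each gene was centred. For DENR the nearest was TFAM, the mitochondrial transcription factor, at 0.20, with a median of 0.90 over all genes. TFAM stood at 148.5 and 163.1 TMM-scaled CPM in H9 set 1 and at 62.2 and 58.6 in set 2, and between 232.6 and 241.5 in HEK293T. The next, LMBR1, was at 0.30. For EIF2A the nearest were JAGN1 (0.18) and the kinase gene AKT2 (0.19), with a median of 0.60, so no gene tracked EIF2A as closely as genes tracked the steadier members. AKT2 stood at 42.7 TMM-scaled CPM in the eIF2A siRNA library of set 1 and at 28.9 in that of set 2. That gap was smaller than the one of EIF2A, whose TMM log2 ratio of set 2 over set 1 was -0.94.

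EIF2D was followed most closely by SEL1L and MYCBP, both at 0.06, MCTS1 by AP2B1 (0.04) and EIF3L (0.06), and EIF5B by SRFBP1 (0.05) and TPR (0.08). These values describe likeness over 8 libraries that fall into 2 cell lines and 2 sets, so much of it is shared with any gene that differs between the lines.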

How the data were processed

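Ribosome footprints of 12 libraries were analysed. The authors deposited raw read counts, 1 whole number for each RefSeq coding sequence. The tools cutadapt and STAR (2.5.2b) and the build hg19 are named per the submitters' processing notes, without their roles. How reads were counted, and whether by strand, is not given in the sources used here. Footprints follow mRNA level as well as translation, and mRNA-seq was not analysed here.

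Summary rows without a gene were left out of library sizes; in HEK293T they held 87.5 to 89.5% of counts and in H9 they held 96.2 to 96.5%, most of them from reads with several alignments. MCTS1 may be undercounted, since its near-identical copy MCTS2, not analysed here, can share its reads. RefSeq (GRCh38.p14) named 18888 of 19305 accessions and was used for names alone. It places EIF2A over a long noncoding RNA, EIF2D over RASSF5 and EIF5B over REV1, whose reads could be shared.

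CPM is reads per 1000000 coding reads. A gene at 0 could still have up to 3 counts, worth 0.519 to 0.693 CPM in HEK293T and 1.6 to 3.2 CPM in H9. That bound does not cover reads with several alignments, which were credited to no gene. A value of 0, such as that of POU5F1, thus does not show that a gene was absent. Intervals are 95% Poisson or exact binomial and cover counting error only, since reads carried no molecular identifiers. Tests used edgeR 4.0.16 in R 4.3.3 (filterByExpr, TMM, robust quasi-likelihood fit, Benjamini-Hochberg over all genes, threshold 0.05), and were tested on simulated data. The 4 summed HEK293T libraries and the 4 H9 libraries had 2 residual degrees of freedom each, and the 8 HEK293T files 4. The rule for named genes took the 5 members everywhere, every list gene past the threshold (otherwise the smallest p in a list), ATF4 and SRC as values, and the 2 genes nearest each member; 3 list genes 1.5-fold apart between the H9 sets and several markers were named after their values were seen. The members, lists and tests were chosen with earlier results of these data known. Alternatives were DESeq2 1.42.0, RLE scaling, library sizes alone, a mean count of at least 50 or no filter, omitting the 20 most abundant genes or each library in turn, and a block by set number. The block by siRNA label and set, and the interaction with cell line, were added after the data were seen. Levels per coding length were not computed, since no lengths were used here. One gene of the client list is not reported here.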

Additional observations from a re-analysis of the deposited data

Results flagged for a closer look

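The siRNA change of EIF2A in HEK293T lay above 1 in set 1 and below 1 in set 2 (log2 0.21 and -0.84 by CPM, 0.08 and -0.88 by TMM): the ratio of set 2 was 0.485 (0.421 to 0.559) of that of set 1. The difference between the sets was not tested, since each set holds 1 summed library on each side, and the interval covers counting error only. MCTS1 moved the opposite way, with a ratio in set 2 of 1.32 (1.11 to 1.56) times that of set 1, and this difference was not tested either. EIF5B was higher under the knockdown label in both HEK293T sets and lower in both H9 sets as labelled, where both counting intervals reached 1. The log2 difference was 0.36, and its interaction test gave an edgeR adjusted p of 0.638.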

How the results depend on the processing

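Of 629 values of the 5 members under alternatives, 569 kept their direction and side of the threshold, 10 lost their call, 4 gained one and 46, none of them called before or after, changed sign (38 of these when 1 library was left out). A main value of 0.00, as for EIF5B and MCTS1 between labels under the eIF2A siRNA label, had no sign to change and was counted as kept. Of 54 values of the 5 called list genes, 18 lost their call, 14 of them when 1 library was left out, and none changed sign. DENR in H9 against HEK293T lost its call by DESeq2 (-0.77), over genes with a mean count of at least 50 (-0.60), with no count filter (-0.80) and under RLE scaling (-0.72), and ranged from -1.97 to -0.08 without 1 library; EIF5B there gave -0.28 with library sizes alone, -0.29 over genes with a mean count of at least 50 and -0.52 to -0.36 without 1 library. EIF2A there ranged from -0.57 to 0.16. The sign changes by setting were DENR by H9 shRNA label (-0.04 by DESeq2, -0.05 with the set block), DENR by siRNA in eIF4E-labelled files (0.07 with library sizes alone, 0.01 with a mean count of at least 50), DENR in the interaction with cell line (0.05 with library sizes alone, 0.01 with the set block), and, with library sizes alone, EIF2D in eIF4E-labelled files (0.03) and MCTS1 in CBP80-labelled files (0.05). Leaving out 1 library, the log2 ranges that crossed 0 were, by siRNA over summed libraries, -0.88 to 0.06 for EIF2A, -0.26 to 0.02 for MCTS1 and -0.03 to 0.11 for DENR. In CBP80-labelled files they were -0.89 to 0.07 for EIF2A and -0.16 to 0.08 for MCTS1, and in eIF4E-labelled files -0.86 to 0.08 for EIF2A, -0.14 to 0.03 for EIF2D and -0.06 to 0.04 for DENR. In the interaction of siRNA and label they were -0.53 to 0.57 for EIF2A, -0.09 to 0.06 for EIF5B and -0.30 to 0.03 for MCTS1. Between labels they were -0.07 to 0.09 for EIF5B and -0.03 to 0.27 for MCTS1 in control. Under the eIF2A siRNA label they were -0.47 to 0.62 for EIF2A, -0.05 to 0.09 for DENR, -0.08 to 0.08 for EIF5B and -0.16 to 0.14 for MCTS1. By H9 shRNA label they were -1.21 to 1.31 for DENR, -0.25 to 0.58 for EIF2A, -0.07 to 0.08 for EIF2D and -0.07 to 0.10 for MCTS1, and in the interaction with cell line -1.29 to 1.29 for DENR and -0.23 to 0.04 for MCTS1.

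By TMM-scaled CPM, the HEK293T set 1 log2 ratios were -0.05 for DENR and 0.09 for EIF5B.

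The summed comparison called 659 genes by DESeq2, 1032 with library sizes alone (740 higher and 292 lower, against 758 and 776) and 75 to 2086 without 1 library. The CBP80-labelled comparison called 287 with library sizes alone (154 higher, 133 lower), 994 with no filter, 863 from its own 4 files and 3 to 818 without 1 file; the eIF4E-labelled one called 186, 869, 1086 and 0 to 747. Between labels, no filter called 1 gene in control and 2 under the eIF2A siRNA label, where DESeq2, library sizes alone, a mean count of at least 50 and its own 4 files called 0, and leaving out 1 file 0 to 3. The interaction with cell line called 0 to 1 genes without 1 library.

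Set numbers were not taken to pair samples, since there are only 2; deviations of same-numbered libraries correlated at 0.52 over 6782 genes in HEK293T and 0.56 over 6761 in H9. With the set number as a block, calls rose to 2993 (summed), 2942 (CBP80) and 2776 (eIF4E), EIF2D in CBP80-labelled files was called at -0.35 (edgeR adjusted p = 0.00545) and EIF5B at 0.23 (0.0366), from files counted elsewhere as parts of 1 library. Over summed libraries the block called neither (0.109 for EIF2D and 0.121 for EIF5B). By H9 shRNA label the set block called 0 of 9751 genes by edgeR, with 493 at an unadjusted p under 0.05 against 84 without the block. With siRNA label and set as a block, 5 and 3 genes were called between labels. The interaction of label and siRNA then had 0 genes called by edgeR and 530 at an unadjusted p under 0.05.

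Levels per coding length were not run. With 2 libraries in each group, the edgeR fit shares its estimate of spread over genes, so an SE need not show a gene's own spread. DENR between the lines had an SE of 0.18, near the 0.19 of EIF2D, while its H9 controls stood at 98.3 and 25.8 CPM. In H9 the 25 DENR reads of 1 library set the width of its counting interval. The causes of these changes were not tested.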
